A study of Homo sapiens with 4 samples.

Results

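The comparison described here is enzastaurin against DMSO alone in SUM159-R, a paclitaxel-resistant derivative of the triple-negative human breast cancer line SUM159. It rests on 2 of the 4 libraries of the study, 1 from cells given 2.5 µM enzastaurin for 24 h and 1 from cells given DMSO. The other 2 libraries are from cells given enzastaurin at the same dose together with 500 nM paclitaxel, called the combination below, and from cells given 500 nM paclitaxel alone. They enter only where the same genes are set beside their values with paclitaxel present. All 4 libraries come from 1 resistant line labelled wild type, which was kept in 150 nM paclitaxel. The sources used here do not give whether that drug stayed on during the 24 h, or how many cultures made up a library. Genes were taken where the counts averaged at least 500 over the 4 libraries, which held for 6986 of 20289 genes, and 6981 of these had a transcript with known length and GC content.

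Protein kinase C (PKC) is a family of serine and threonine kinases. Conventional isozymes are activated by diacylglycerol together with calcium, another group by diacylglycerol alone, and atypical isozymes by neither. Phorbol esters stand in for diacylglycerol in this. Active PKC feeds into the RAS, RAF and ERK kinase cascade, which raises transcription through AP-1 (dimers of JUN and FOS proteins) and through ETS factors, and which induces its own phosphatases and Sprouty inhibitors as feedback. Enzastaurin is a bisindolylmaleimide that competes with ATP and was developed against the beta isozyme of PKC.

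Differences between the libraries were small. Genes with a lower level in enzastaurin than in DMSO included the ERK phosphatases DUSP5 and DUSP6, the plasminogen activator PLAT, the thrombin receptor THBD, the transglutaminase TGM2, the lipase MGLL and the metallothionein MT2A. Genes with a higher level included HMOX1 and AKR1C2, both targets of the oxidative stress factor NRF2. With 1 library a side no ratio below has a replicate error, no p was computed, and the 95% intervals given cover counting error alone. Libraries held 21959564 counts in enzastaurin and 22576953 in DMSO, with 18236527 in the combination and 24699948 in paclitaxel, and a count of 0 allowed up to 0.136, 0.133, 0.166 and 0.121 CPM (the standard depth-scaled count) in that order. The share of counts from the mitochondrial genome was 7.12% in enzastaurin and 7.08% in DMSO.

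The identity of the line was checked on markers. The oestrogen receptor ESR1 and the progesterone receptor PGR had 0 counts in enzastaurin and 0 in DMSO. The receptor gene ERBB2 was not absent, at 83.4 CPM in enzastaurin and 91.1 CPM in DMSO. The mesenchymal filament gene VIM was at 3957 CPM in enzastaurin and 4694 CPM in DMSO, and the adhesion receptor CD44 at 583 and 616 CPM in the same order. The epithelial gene EPCAM had 5 counts in enzastaurin and 0 in DMSO. Epithelial keratin genes were mixed. KRT7 was at 1001 CPM in enzastaurin and 1227 CPM in DMSO, KRT8 at 311 and 346, and KRT18 at 259 and 280. KRT5, KRT14, KRT17 and KRT19 had at most 3 counts in either library, and KRT81 had 13 in enzastaurin and 9 in DMSO. Of 13 markers of blood and endothelial cells, 6 were at 0 in enzastaurin and 5 in DMSO, and none reached a mean of 500 counts. The summed level of these 13 was 19.1 CPM in enzastaurin and 25.7 CPM in DMSO, 19.5 CPM in the combination and 28.0 CPM in paclitaxel. Most of it came from CD68, with 294 counts in enzastaurin and 421 in DMSO, and KDR, with 81 and 106. CD3E, MS4A1 and HBB were at 0 in both libraries.

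The isozymes that the drug can reach were read next. PRKCA, a conventional isozyme, had the most counts, 4831 in enzastaurin and 4685 in DMSO, or 219 and 207 CPM. PRKCB, which encodes the beta isozyme, had 0 counts in both libraries, and so did PRKCQ. Of the 12 genes of the PKC and related PKD families 6 passed the count minimum, and their ratios lay between -0.10 and 0.06 on the log2 scale after the adjustment described below. The interval was off 0 for 1 of the 6, the atypical isozyme PRKCI, at -0.10 (-0.20 to -0.01). Of the 6 under the minimum, PRKCH had 504 counts in enzastaurin and 543 in DMSO, PRKCE 92 and 103, and PRKCZ 31 and 29. Fewer transcripts per cell and fewer cells of a kind cannot be told apart in these bulk samples, here or in any result below.

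Before any gene was read, the ratios were set against the transcripts' own properties. Raw log2 ratios of enzastaurin over DMSO were lower for transcripts rich in G and C, with a Spearman correlation of -0.531 across the 6981 genes, and higher for longer transcripts, at 0.345. These are correlations across genes, which are not independent replicates and share both libraries. In the lowest decile of GC content (median 37.0%) the median raw ratio was 0.10, and in the highest (63.2%) it was -0.11. For length, the shortest decile (median 1220 bases) had a median of -0.06 and the longest (10036 bases) one of 0.08. GC content and length were themselves related, at -0.303. A smooth trend in both, which ranged from -0.20 to 0.22 over genes, was therefore subtracted, and correlations of -0.0007 and -0.0008 were left.

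**Figure D1:**
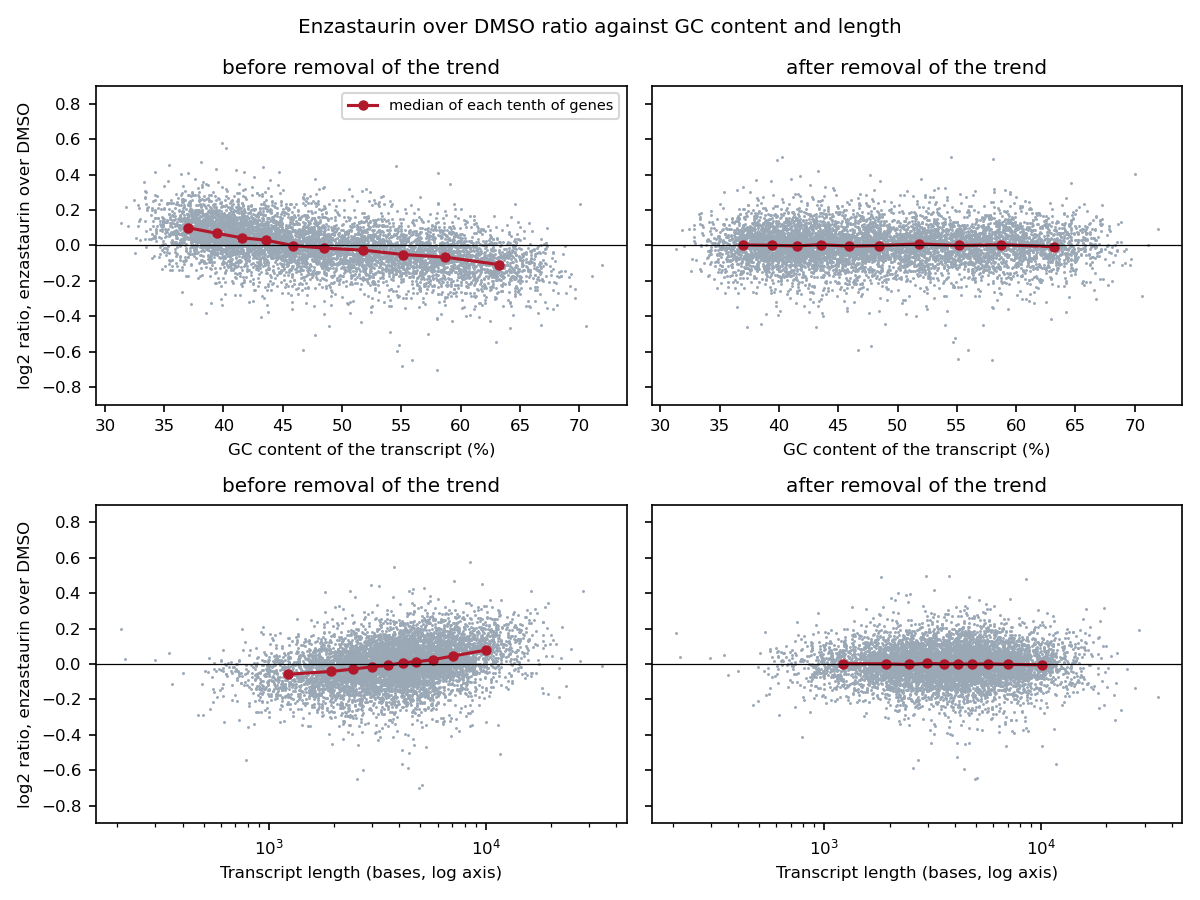
Log2 ratio of enzastaurin over DMSO for each of 6981 genes (grey points) against GC content in percent (top) and transcript length in bases on a log axis (bottom), before (left) and after (right) removal of the trend. Red points are medians of deciles of the genes: before removal they run from 0.10 at the lowest GC content to -0.11 at the highest, and after it they lie near 0.

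The same trend differed from one pair of libraries to the next. Its correlation with GC content was -0.391 for paclitaxel over DMSO and -0.171 for the combination over DMSO, which share the DMSO library with the comparison here, and -0.035 for the combination over paclitaxel, which does not. Enzastaurin set over paclitaxel gave -0.117 and over the combination -0.015. The correlation with length did not follow this order. It was 0.311 for enzastaurin over the combination and 0.188 for enzastaurin over paclitaxel, neither of which holds the DMSO library. For paclitaxel over DMSO it was 0.139, for the combination over DMSO -0.189 and for the combination over paclitaxel -0.288. RNA quality and fragment length were not measured in the files, and whether they moved with this trend was not tested.

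After adjustment the ratios had an SD of 0.103 over genes, against 0.123 before, and 71.9% of them lay within 0.1 of 0. The median interval reached 0.106 to either side. A gene was called higher or lower where its adjusted ratio was at least 0.32 in size on the log2 scale with the interval off 0. By that rule 20 genes were called higher (0.286% of 6981) and 41 lower (0.587%), together 61 (0.874%). Of these, 4 reached 1.5-fold (0.0573% of all), each of them lower, and 0 reached 2-fold. Intervals without the size rule lay above 0 for 948 genes (13.6%) and below 0 for 987 (14.1%), and the shares of each gene list are set beside those below. Intervals narrow as counts rise, so lists of genes with many counts can exceed these shares at small ratios. The mitochondrially encoded genes, for example, had 61.5% of intervals above 0 at a median of 0.03. Shares were not matched for counts. Adjusted ratios ran from -0.65 to 0.50, while those of the combination over paclitaxel ran from -2.39 to 1.253. At the edge of the size rule (0.3219 unrounded) AKAP12, at -0.3221, and COMMD3, at 0.3232, were just inside it, and IGFBP4, at -0.3193, and ACAA1, at 0.32, just outside. At the edge of the count minimum, TRAFD1 with a mean of 500.0 and TPMT with 500.25 counts were just inside, and STARD3NL with 498.75 and PRKCH with 499.56 just outside. Raw log2 ratios of these 4 were -0.13, 0.11, 0.17 and -0.08 in that order, each with an interval that spans 0.

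**Figure D2:**
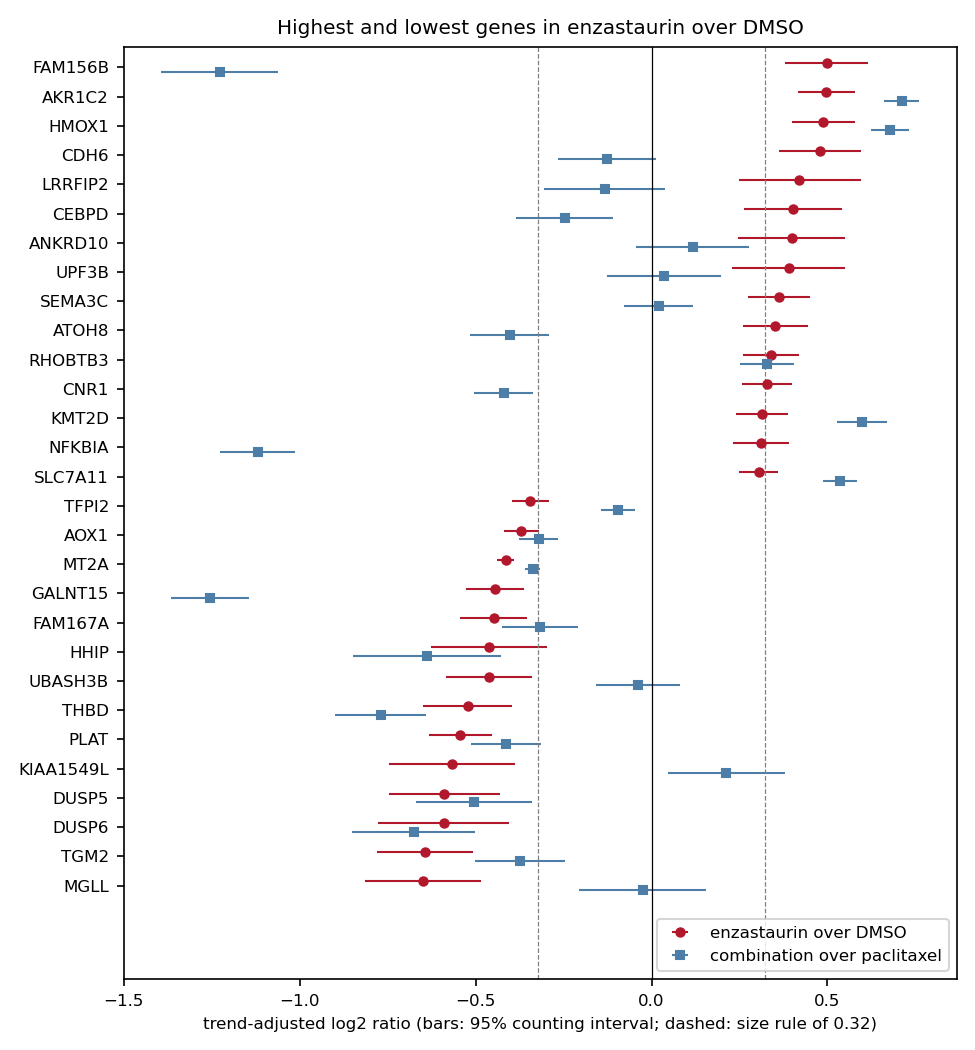
Trend-adjusted log2 ratios of genes at the high and low ends, ranked by the interval end nearest to 0 and drawn by size, for enzastaurin over DMSO (red circles) and, for the same genes, the combination over paclitaxel (blue squares). Bars are 95% counting intervals from 1 library a side, and dashed lines mark 0.32 to either side. The red intervals shown are off 0, while blue intervals lie wholly on the opposite side for FAM156B, CEBPD, ATOH8, CNR1, NFKBIA and KIAA1549L.

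ERK-induced genes were among those lower in enzastaurin. DUSP6 encodes the cytoplasmic phosphatase that removes the activating phosphates of ERK, and it had 397 counts in enzastaurin and 611 in DMSO, or 17.98 and 27.1 CPM. Its adjusted ratio was -0.59 (-0.78 to -0.41), 1.51-fold lower. DUSP5, the nuclear ERK phosphatase, had 538 counts in enzastaurin and 863 in DMSO, or 24.4 and 38.2 CPM, at -0.59 (-0.75 to -0.43). On hg38 DUSP6 lies on chromosome 12 from 89347232 to 89353271 (minus strand) and DUSP5 on chromosome 10 from 110497838 to 110511544 (plus), by GENCODE 29. These 2 were the called genes of a list of 28 ERK-induced and feedback genes, of which 19 passed the count minimum. Over the 19 the interval lay below 0 for 11 (57.9%) and above 0 for none, and the median was -0.18, against 0.00 over all 6981 genes.

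Several members of that list stayed short of the size rule with intervals below 0. Among ETS factors downstream of ERK, ETV4 was at -0.30 (-0.41 to -0.20), ETV1 at -0.27 (-0.37 to -0.16) and ETV5 at -0.15 (-0.27 to -0.03). The Sprouty genes, whose proteins inhibit receptor signalling to ERK, were at -0.26 (-0.35 to -0.16) for SPRY4 and -0.22 (-0.31 to -0.12) for SPRY2. The dual-specificity phosphatase genes DUSP1 and DUSP7 were at -0.23 and -0.21, the membrane protein gene EMP1 at -0.30, and the cyclin D1 gene CCND1 at -0.18. Other members did not share this, with DUSP4 at -0.06 (-0.25 to 0.12), SPRED2 at 0.07 (-0.02 to 0.16) and the receptor gene EPHA2 at 0.02 (-0.04 to 0.08). Kinases of the cascade itself showed no such lean: of 20 RAS and MAPK core genes that passed the minimum, 3 had intervals above 0 and 3 below, with a median of -0.03 that had the other sign before the trend was removed.

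The transcription factors downstream gave a mixed picture. Of 12 AP-1 subunit genes 6 passed the minimum and 0 were called. FOSL1, a subunit that ERK induces and stabilises, had 4681 counts in enzastaurin and 5741 in DMSO, at -0.16 (-0.22 to -0.11), and it was the single one of the 6 with an interval off 0. JUN was at 0.06 and JUNB at 0.07. Below the minimum, FOSB had 74 counts in enzastaurin and 142 in DMSO, a raw ratio of -0.91 (-1.33 to -0.49), and MAFF had 311 and 443, at -0.48 (-0.69 to -0.27). The early-response list held 20 measured genes, 0 called, with 6 intervals above 0 and 6 below and a median of -0.01. Its lowest was MYC, the growth-promoting factor, at 335 CPM in enzastaurin and 425 CPM in DMSO, an adjusted ratio of -0.29 (-0.33 to -0.24). Its highest was EGR1, an early target of ERK through SRF, with 2185 counts in enzastaurin and 1965 in DMSO, at 0.24 (0.15 to 0.33).

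Among genes of the EGF receptor system that passed the minimum, 0 were called. ERRFI1, an inhibitor of the receptor that its signalling induces, had 2821 counts in enzastaurin and 3544 in DMSO, at -0.32 (-0.39 to -0.24), just short of the size rule. The ligand genes NRG1 and EREG were both at -0.21, and the receptor gene EGFR was at -0.07 (-0.11 to -0.02). Of the 7 measured members 4 had intervals below 0 and 0 above, with a median of -0.07. Ligands under the minimum included HBEGF, with 332 counts in enzastaurin and 464 in DMSO, a raw ratio of -0.45 (-0.66 to -0.24), and AREG, with 69 and 102. BTC went the other way from few counts, 21 in enzastaurin and 8 in DMSO, a raw ratio of 1.42 (0.19 to 2.81), and EPGN had 9 and 4.

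**Figure D3:**
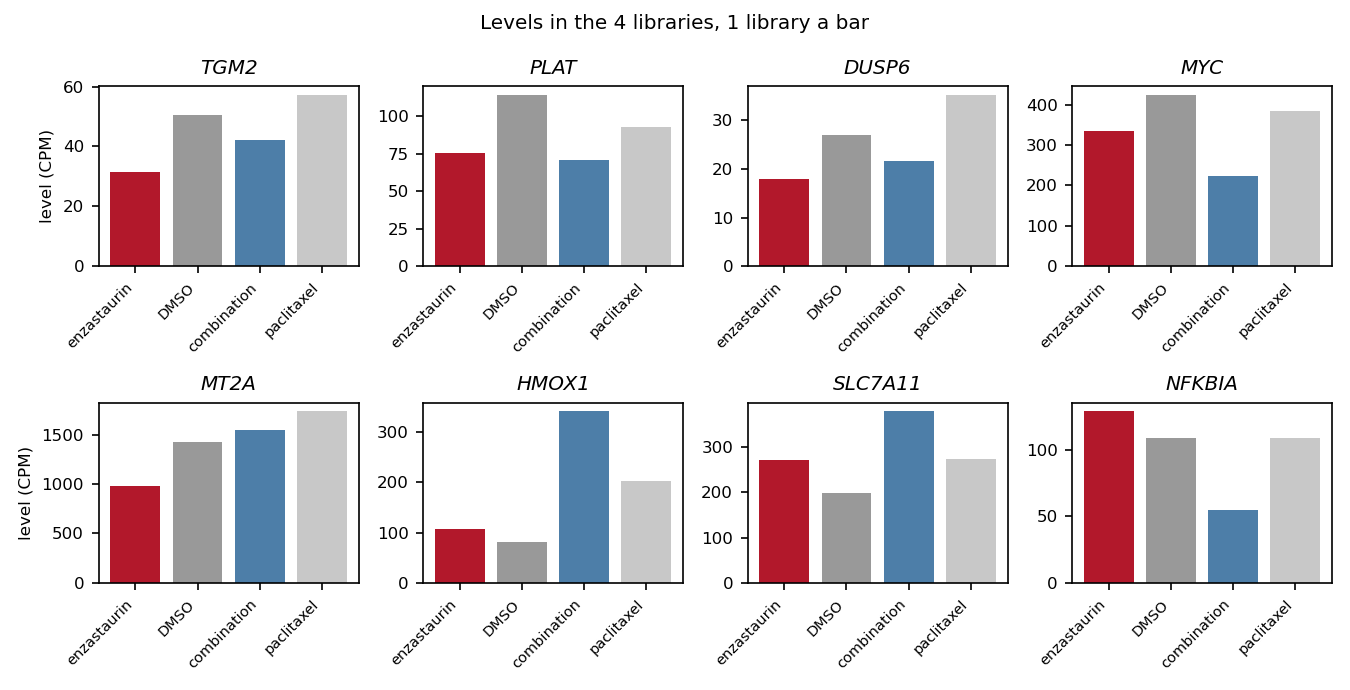
Levels in CPM of 8 genes in the enzastaurin, DMSO, combination and paclitaxel libraries, 1 library a bar, each axis starting at 0. TGM2, PLAT, DUSP6, MYC and MT2A have a lower bar in enzastaurin than in DMSO (MYC 335 and 425 CPM), and HMOX1, SLC7A11 and NFKBIA a higher one (HMOX1 106 and 80.2 CPM).

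PLAT, THBD and TFPI2, which act on plasminogen, thrombin and plasmin in that order, were called lower, a grouping made after their values were seen. PLAT encodes tissue plasminogen activator. It had 1669 counts in enzastaurin and 2581 in DMSO, or 75.6 and 114 CPM, with an adjusted ratio of -0.54 (-0.63 to -0.45). It lies on chromosome 8 from 42175233 to 42207724 (minus strand). PLAU, the urokinase gene, was at -0.20 (-0.32 to -0.08), and its receptor gene PLAUR, under the minimum, had 315 counts in enzastaurin and 447 in DMSO, a raw ratio of -0.47 (-0.69 to -0.26). SERPINE2, an inhibitor of thrombin and plasminogen activators and also under the minimum, had 245 counts in enzastaurin and 191 in DMSO, a raw ratio of 0.39 (0.11 to 0.67). THBD, the thrombomodulin gene, whose product binds thrombin and turns it towards protein C, had 849 counts in enzastaurin and 1285 in DMSO, at -0.52 (-0.65 to -0.40). Endothelial cells also make THBD. Of their markers CDH5 had 0 counts in enzastaurin and 1 in DMSO, VWF 1 in each, PECAM1 21 and 19, and KDR 81 and 106, and their part in this result was not tested. TFPI2, a Kunitz inhibitor of plasmin, had 5070 counts in enzastaurin and 6395 in DMSO, at -0.34 (-0.40 to -0.29).

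Over the whole list of matrix proteases and inhibitors, 13 of 31 genes passed the minimum, 3 were called lower and 0 higher. PLAT and ADAMTS6 were among the calls. ADAMTS6, a secreted metalloprotease, had 582 counts in enzastaurin and 739 in DMSO, at -0.38 (-0.54 to -0.22). Intervals lay below 0 for 7 of the 13 and above 0 for 3, and the median was -0.10. The 3 above were ADAMTS12, at 0.17, the gelatinase gene MMP2, at 0.12 (0.06 to 0.18), and the lysosomal protease gene CTSD, at 0.07.

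MT2A, which encodes a small cysteine-rich protein that binds zinc and copper, was at 983 CPM in enzastaurin and 1432 CPM in DMSO. Its raw ratio was -0.54 and its adjusted ratio -0.41 (-0.44 to -0.39). The MT2A promoter holds TGACTCA, the heptamer through which phorbol esters, and so PKC, were classically shown to act on AP-1. It is shown for that reason beside the 3 other promoters of called-lower genes that matched the wider letters searched. C10orf90 has the same heptamer as MT2A, while TFPI2 and GALNT15 have TGAATCA, which differs in the middle base. The letters searched were TGANTCA on both strands, which read the same on either strand apart from the middle base. Windows are RefSeq sequences of GRCh38.p14, from 250 bases before to 50 after the annotated start, written 5′ to 3′ on the gene's strand, with the match in capitals. They lie at chr16:56608334-56608633 (plus strand) for MT2A, chr7:93890704-93891003 (minus) for TFPI2, chr3:16174430-16174729 (plus) for GALNT15 and chr10:126521392-126521691 (minus) for C10orf90.
MT2A: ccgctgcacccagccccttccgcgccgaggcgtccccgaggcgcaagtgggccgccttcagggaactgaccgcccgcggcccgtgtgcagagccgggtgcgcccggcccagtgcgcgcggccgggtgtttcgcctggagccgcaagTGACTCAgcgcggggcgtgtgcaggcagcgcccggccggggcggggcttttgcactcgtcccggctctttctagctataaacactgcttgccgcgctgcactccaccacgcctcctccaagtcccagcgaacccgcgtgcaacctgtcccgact
TFPI2: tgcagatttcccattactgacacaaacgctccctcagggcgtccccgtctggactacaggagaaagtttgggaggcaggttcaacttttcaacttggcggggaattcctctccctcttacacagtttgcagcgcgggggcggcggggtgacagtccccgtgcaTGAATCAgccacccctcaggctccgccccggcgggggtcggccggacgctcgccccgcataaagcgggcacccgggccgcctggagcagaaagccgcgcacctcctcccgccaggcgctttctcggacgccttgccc
GALNT15: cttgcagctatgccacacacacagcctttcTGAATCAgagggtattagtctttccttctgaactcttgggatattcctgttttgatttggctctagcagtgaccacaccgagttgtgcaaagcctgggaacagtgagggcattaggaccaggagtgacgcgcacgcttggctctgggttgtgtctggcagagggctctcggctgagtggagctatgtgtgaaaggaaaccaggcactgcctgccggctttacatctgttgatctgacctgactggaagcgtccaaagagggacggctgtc
C10orf90: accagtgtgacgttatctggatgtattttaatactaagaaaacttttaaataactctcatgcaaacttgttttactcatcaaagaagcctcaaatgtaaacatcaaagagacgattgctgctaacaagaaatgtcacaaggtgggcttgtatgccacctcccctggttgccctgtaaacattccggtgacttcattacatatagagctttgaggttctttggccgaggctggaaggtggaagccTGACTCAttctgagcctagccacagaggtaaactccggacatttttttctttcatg

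The match lies 104 to 98 bases before the start in MT2A, 87 to 81 before it in TFPI2 and 220 to 214 before it in GALNT15, and it ends on the start base in C10orf90. That C10orf90 start is internal to the gene's GENCODE 29 span, 126424997 to 126670446 on the minus strand. Only 1 window a gene was searched, and other starts were not. The MT2A match also overlaps the letters TGACNNNGC, the core of the antioxidant response element. Promoter windows were found for 26 of the 41 genes called lower and 15 of the 20 called higher. The letters TGANTCA, with any middle base, stood in 4 of the 26 (15.4%) and in 1 of the 15 (6.67%, LRRFIP2). Among promoters of the genes above the count minimum they stood in 235 of 5824 (4.04%), and among all promoters in 2120 of 27305 (7.76%). Matches to the MT2A heptamer itself were not counted apart. Such a match describes the window only, and no binding was measured.

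The remaining lowest genes had varied roles. MGLL, the lipase that degrades the endocannabinoid 2-AG, had the lowest adjusted ratio, with 483 counts in enzastaurin and 804 in DMSO, at -0.65 (-0.81 to -0.48). It lies on chromosome 3 from 127689062 to 128052190 (minus strand). TGM2, which crosslinks matrix proteins, had 696 counts in enzastaurin and 1142 in DMSO, at -0.64 (-0.78 to -0.51), and lies on chromosome 20 from 38127387 to 38166578 (minus). GALNT15, a glycosyltransferase that starts mucin-type sugar chains, had 2054 and 2883 counts in the same order, at -0.44 (-0.53 to -0.36). HHIP, which binds and holds back Hedgehog ligands, was at -0.46 (-0.63 to -0.30), UBASH3B, a tyrosine phosphatase, at -0.46 (-0.59 to -0.34), and AOX1, an aldehyde oxidase, at -0.37 (-0.42 to -0.32). KIAA1549L was at -0.57 (-0.75 to -0.39) and FAM167A at -0.45 (-0.54 to -0.35).

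The other 26 genes called lower lay between -0.45 and -0.32. They include the kinase genes SRC, with 770 counts in enzastaurin and 1057 in DMSO, at -0.36 (-0.50 to -0.23), STK3 of the Hippo pathway, at -0.44 (-0.62 to -0.27), and ULK1, which starts autophagy, at -0.38 (-0.55 to -0.20). AKAP12, a scaffold that PKC phosphorylates, was the single call among 14 measured PKC substrates and adaptors, which had 5 intervals above 0, 5 below and a median of -0.02. The semaphorin receptor gene PLXNA2 was at -0.37, the secreted hormone gene STC1 at -0.40, the transcription factor gene SIM2 at -0.45 and the hypoxia-induced gene NDRG1 at -0.35. The unconventional myosin gene MYO1E was at -0.38, but at 0.20 with the deposited FPKM values and a pseudocount of 1. PDCD4, which holds back translation, was at -0.39, but 34.0% of its transcript's 31-base words were shared with other genes, and summed with its partner the locus was at -0.22 (-0.34 to -0.10). The gene ENSG00000285238, for which the table gives no symbol, was at -0.36, and the sum over it and the genes whose reads it shares had 15420 counts in enzastaurin and 15368 in DMSO, at 0.03 (-0.00 to 0.06). The rest were TOB1, DHX34, SLU7, C10orf90, CCBE1, PNPLA8, FRMD4A, SLC16A6, PITPNC1, TTLL11, BCAR3, NHSL1, ABI3BP and ANTXR2.

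Adhesion, secreted matrix and cytoskeleton genes leaned low by small amounts. Collagens and laminins did not share this. Of 20 measured, 7 (35%) had intervals above 0 and 3 below. Their median of 0.03 had the other sign, -0.01, before the trend was removed. Of 19 measured integrin and focal adhesion genes SRC was the single call, 10 (52.6%) had intervals below 0 and 2 above, and the median was -0.07. ITGA6 and ITGA3, chains of laminin receptors, were at -0.27 (-0.33 to -0.21) and -0.21 (-0.26 to -0.17), while ITGAV, a chain of vitronectin receptors, was at 0.26 (0.18 to 0.33). Among 19 secreted matrix genes 10 (52.6%) had intervals below 0 and 4 above, with a median of -0.08. DCN, the decorin gene, was its single call, higher, with 717 counts in enzastaurin and 530 in DMSO, at 0.37 (0.20 to 0.53), and IGFBP4, which binds insulin-like growth factors, was lowest.

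Of 26 measured YAP and TEAD genes 10 (38.5%) had intervals below 0 and 4 above, 0 were called, and the median was -0.05. CCN1 was at -0.19 (-0.24 to -0.14) and AXL at -0.12 (-0.16 to -0.08), but CCN2, another standard YAP target, was at -0.01 (-0.09 to 0.07). Of 29 measured SRF and actin genes 13 (44.8%) lay below 0 and 1 above, 0 were called, and the median was -0.05, with CNN3 lowest at -0.27 (-0.40 to -0.13) and ACTB at -0.10 (-0.12 to -0.09).

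**Figure D4:**
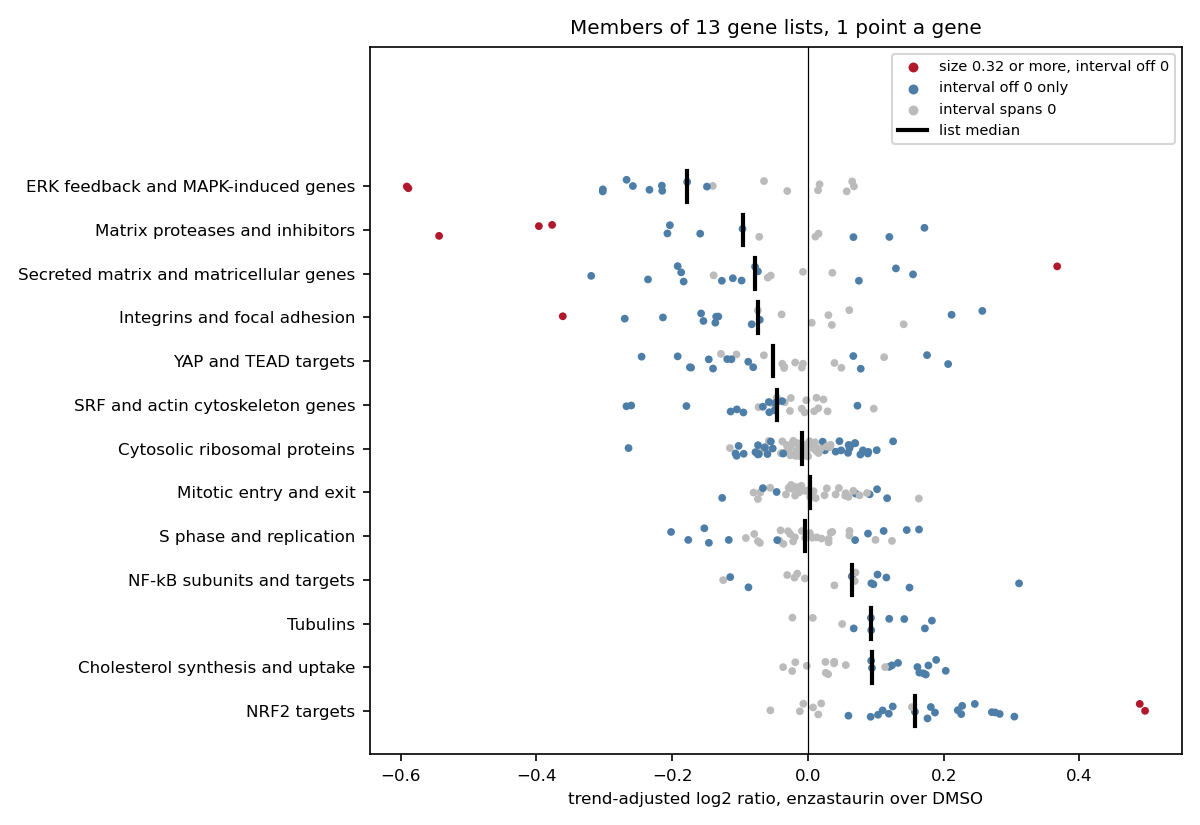
Trend-adjusted log2 ratio of enzastaurin over DMSO for each measured member of 13 gene lists, 1 point a gene, with the list median as a black bar. Red points passed the 0.32 rule, blue points have a counting interval off 0 only, and grey points have an interval that spans 0. Medians run from -0.18 for ERK feedback genes to 0.16 for NRF2 targets.

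NRF2 targets leaned the other way. NRF2 is the factor that raises antioxidant, glutathione and pentose phosphate genes when cells meet oxidants or electrophiles. HMOX1, the enzyme that degrades haem, had 2345 counts in enzastaurin and 1810 in DMSO, or 106 and 80.2 CPM, with an adjusted ratio of 0.49 (0.40 to 0.58). It lies on chromosome 22 from 35380361 to 35394214 (plus strand). AKR1C2, an aldo-keto reductase that reduces steroids and carbonyls, had 3056 counts in enzastaurin and 2138 in DMSO, at 0.50 (0.42 to 0.58), and lies on chromosome 10 from 4987400 to 5018031 (minus). Its transcript shares 63.5% of its 31-base words with other genes, and summed with its near copy AKR1C1 it was at 0.44 (0.37 to 0.51). Of the 27 measured NRF2 targets 20 (74.1%) had intervals above 0 and none below, these 2 were called, and the median was 0.16.

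SLC7A11, which imports cystine for glutathione synthesis, was next at 272 CPM in enzastaurin and 199 CPM in DMSO. Its raw ratio of 0.45 became 0.30 (0.25 to 0.36) after adjustment, short of the size rule. EPHX1, an epoxide hydrolase, was at 0.28 (0.18 to 0.39), and the autophagy receptor gene SQSTM1 at 0.25 (0.20 to 0.29). The ferritin genes FTH1 and FTL were at 0.11 and 0.12. NQO1, a quinone reductase, was at 0.06 (0.02 to 0.10), and SRXN1, the sulfiredoxin gene, at -0.06 (-0.13 to 0.02). The wider list of glutathione, thioredoxin and peroxidase genes, which holds none of the above, had 21 measured genes, 4 intervals above 0 and none below, and a median of 0.02 that had the other sign, -0.06, before the trend was removed. Antioxidant response letters (TGACNNNGC, both strands) stood in 5 of 21 NRF2 target promoters found (23.8%) and in 15.8% of promoters of the genes above the minimum. The 5 were GCLM, ME1, PGD, PIR and TXNRD1, so HMOX1 and AKR1C2 were not among them. Not every target had a window, and sequence beyond 250 bases before or 50 after the start was not searched. The search therefore cannot show that either gene lacks the letters. Of promoters found for called genes, the letters stood in 2 of 15 called higher (13.3%, CNR1 and LRRFIP2) and 4 of 26 called lower (15.4%).

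Cholesterol genes and tubulins were slightly higher, with no gene past the size rule. Of 23 measured cholesterol genes 12 (52.2%) had intervals above 0 and none below, with a median of 0.09. HMGCS1, an early enzyme of the pathway, was at 0.20 (0.14 to 0.27), and SQLE, the squalene epoxidase gene, was at 0.16, while FDFT1 was at 0.00. Of 10 measured tubulin genes 7 (70%) had intervals above 0 and none below, with a median of 0.09. TUBB, the main beta isotype by counts, was at 3103 CPM in enzastaurin and 2814 CPM in DMSO, at 0.18 (0.17 to 0.20). TUBB shares 3.93% of its 31-base words with other genes. TUBA4A shares 33.6%, with STK16 as its partner, and their sum was at 0.16 (0.10 to 0.22). Sharing was not measured for the other isotypes, and values of single isotypes are uncertain to that extent.

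Of 17 measured NF-kB subunits and targets 7 (41.2%) had intervals above 0 and 2 below, with a median of 0.06. NFKBIA, the inhibitor that NF-kB induces against itself, was at 129 CPM in enzastaurin and 109 CPM in DMSO, an adjusted ratio of 0.31 (0.23 to 0.39). The next largest ratio of this list was that of BIRC3, at 0.15 (0.08 to 0.22). CSF1, the macrophage growth factor gene, belongs to the list of secreted cytokines rather than this one. It was at 0.30 (0.22 to 0.38), while the chemokine gene CXCL8 was at 0.00.

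Among the other highest genes were several of cell surface and signalling proteins. CDH6, a cadherin, had 1486 counts in enzastaurin and 1018 in DMSO, or 67.3 and 45.1 CPM, at 0.48 (0.36 to 0.60). SEMA3C, a secreted semaphorin, was at 0.36 (0.27 to 0.45), and CNR1, the cannabinoid receptor whose ligand MGLL degrades, at 0.33 (0.26 to 0.40). The transcription factor genes CEBPD and ATOH8 were at 0.40 (0.26 to 0.54) and 0.35 (0.26 to 0.44). Before the trend was removed both were at 0.23, short of the size rule. UPF3B of nonsense-mediated decay was at 0.39. LRRFIP2 was at 0.42, ANKRD10 at 0.40 and RHOBTB3 at 0.34. KMT2D, a histone methyltransferase, was at 0.31 (0.24 to 0.39), just short of the size rule.

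FAM156B, though among the highest at 0.50 (0.38 to 0.62), has all of its 31-base words in its copy FAM156A, and the sum of both had 1611 counts in enzastaurin and 1559 in DMSO, at 0.13 (0.03 to 0.23). The other 8 genes called higher lay between 0.32 and 0.38. They were the prostaglandin receptor gene PTGFR, CREBZF, LHFPL6, DCN, TENT4B, MAGEA2, PARP6 and COMMD3. MAGEA2 and its near copies summed to 0.01 (-0.04 to 0.06), and COMMD3 with its readthrough gene to 0.10 (-0.07 to 0.27), so these calls do not hold for the summed loci.

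Cell cycle genes were close to 0. AURKB, the Aurora B kinase named in the study's title, had 577 counts in enzastaurin and 705 in DMSO. Its raw ratio was -0.26 and its adjusted ratio -0.18 (-0.34 to -0.02). INCENP, its scaffold, was at 0.13 (0.05 to 0.22). The 7 passenger complex and Aurora genes, the 36 mitotic genes and the 37 S phase genes that passed the minimum each had 0 calls and a median of 0.00. Of the 21 G1 to S regulators 2 had intervals above 0 and 4 below, with the inhibitor gene CDKN2C at 0.30 (0.16 to 0.44) and CDKN1A, which encodes p21, at -0.20. ABCB1, the pump that exports paclitaxel, was at 329 CPM in enzastaurin and 288 CPM in DMSO, at 0.16 (0.11 to 0.21). It was 1 of 4 among 11 measured drug transporters with intervals above 0, against 2 below, with a median of -0.01.

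Large housekeeping groups served as a background. Cytosolic ribosomal protein genes had a raw median of -0.05 and an adjusted one of -0.01 over 82 genes. Mitochondrial ribosomal proteins (67 genes) were at -0.03, nuclear-encoded oxidative phosphorylation (70) and the proteasome (34) at 0.00 and -0.01, splicing factors (31) at 0.04 with 10 intervals above 0 and 1 below, and the 13 mitochondrially encoded genes at 0.03 with 8 above and none below. Solute carriers (98 genes) were at 0.01 with SLC16A6 as the single call, lower, and ZNF genes (80) at 0.03.

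Of the remaining signalling and growth lists, medians lay between -0.03 and 0.04. Diacylglycerol enzymes were at 0.04, receptor tyrosine kinases at 0.01, PI3K and mTOR genes at -0.02, FOXO targets at -0.03, WNT genes at 0.01, secreted cytokines at -0.01, interferon-stimulated genes at 0.01, p53 targets at 0.01, apoptosis genes at -0.01, and MYC with ribosome biogenesis genes at 0.02. TGF-beta genes were at 0.02 with 1 call, lower, epithelial to mesenchymal markers at -0.02, and collagens and laminins at 0.03 with 7 intervals above 0 and 3 below. Stress and metabolic lists were as close to 0: integrated stress response 0.03, serine and one-carbon synthesis 0.01, aminoacyl-tRNA synthetases -0.01, endoplasmic reticulum chaperones -0.03, cytosolic chaperones 0.01, fatty acid genes 0.03, glycolysis and hypoxia -0.01, and lysosome and autophagy 0.02. Microtubule-associated proteins were at -0.02 with none above 0 and 6 below, and histone genes at 0.02. The 9 measured identity markers of the line were further from 0, at -0.10, with 5 intervals (55.6%) below 0 and 1 above. Their median was as low as that of the matrix proteases. The single calls in glycolysis and hypoxia and in lysosome and autophagy, both lower, were NDRG1 and ULK1.

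The same genes were then set beside their ratios in the combination over paclitaxel, a contrast of enzastaurin against none that shares no library with the one above. There 537 genes were called higher (7.69%) and 995 lower (14.3%), together 21.9% of 6981. Of the 20 genes called higher without paclitaxel, 4 were called higher, 4 lower and 12 neither, with a median of -0.11. Of the 41 called lower, 14 were called lower, 1 higher and 26 neither, with a median of -0.19. Across all 6981 genes the adjusted ratios of both contrasts had a Pearson correlation of 0.0898, a description across genes.

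Genes on the same side in both contrasts included several of those described above. DUSP6 was at 21.6 CPM in the combination and 35.3 CPM in paclitaxel, an adjusted ratio of -0.67, and DUSP5 was at -0.50. PLAT was at 70.7 CPM in the combination and 92.9 CPM in paclitaxel, at -0.41, with THBD at -0.77, TGM2 at -0.37 and MT2A at -0.34. HMOX1 was at 342 CPM in the combination and 202 CPM in paclitaxel, at 0.68, with AKR1C2 at 0.71 and SLC7A11 at 0.54. List medians there were -0.16 for ERK feedback genes, -0.17 for matrix proteases and 0.28 for NRF2 targets, against 0.02 over all 6981 genes. Such medians were not particular to these lists, since lists near 0 without paclitaxel reached them too. Early-response genes were at -0.57, TGF-beta genes at -0.18, collagens and laminins at -0.17 and cytosolic chaperones at 0.27.

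Other genes were closer to 0 or on the opposite side. MGLL was at -0.03 (-0.21 to 0.15) with paclitaxel present, UBASH3B at -0.04, TFPI2 at -0.10 and CDH6 at -0.13 (-0.27 to 0.01). NFKBIA was at 54.8 CPM in the combination and 109 CPM in paclitaxel, at -1.12, and TUBB at 1308 and 2852 CPM, at -1.14. List medians there were -0.02 for cholesterol genes and -0.18 for tubulins. Differences between the contrasts were not tested, since each has 1 library a side.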

How the data were processed

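Total RNA was reverse transcribed with random primers and sequenced, 1 library for each of 4 conditions. The authors deposited 1 table of expected counts and FPKM values for 20289 genes, made with RSEM and hg38 per the submitters' processing notes. The sources used here name no aligner, version or annotation release. The authors left the expected counts unscaled, and 10.7% to 11.4% of values per library were not whole (tolerance 0) and were rounded. FPKM values, which the authors scaled for length and depth, were used as an alternative.

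Library totals times TMM factors (edgeR 4.0.16; 1.005 for enzastaurin, 1.000 for DMSO) gave CPM. Each log2 ratio has a 95% Clopper-Pearson conditional interval. Reads carry no molecular identifiers and so are not independent molecules, and intervals and floors (3 counts) cover counting error only. The trend was a robust fit of additive splines (6 degrees of freedom each) in log10 length and GC content of the longest coding transcript of GENCODE 29, and intervals were shifted by it without its own error. Shared sequence was measured as the share of 31-base words held by other genes, and genes at 10% or more were summed with their partners. Scripts were tested on simulated data.

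Members and 55 gene lists (54 with a measured gene) were chosen with earlier results of these data known. Named genes are the 15 at each end, up to 4 calls a direction in each list or its 2 largest, and the marker genes. Other names, among them list members short of a call and genes under the count minimum, were chosen after their values were seen. A few genes that the rules select are not reported here. Alternatives were DESeq2 1.42.0 size factors, library size, no trend or another trend, other count minimums and folds, FPKM with pseudocounts of 1 and 0.1, and, chosen after seeing the data, leaving out genes that share reads. R 4.3.3, Python 3.11.15, numpy 2.4.6, scipy 1.17.1, pandas 2.3.3, statsmodels 0.14.6, patsy 1.0.2 and matplotlib 3.10.9 were used.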

Additional observations from a re-analysis of the deposited data

Results flagged for a closer look

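In 5 genes called in enzastaurin over DMSO, the ratio of the combination over paclitaxel was called with the opposite sign. With 1 library in each condition the difference between the contrasts was not tested. FAM156B was at -1.23 with paclitaxel and 0.50 without, a difference of -1.72, and it shares its whole transcript with a copy. CREBZF was at -0.50 with paclitaxel and 0.32 without, a difference of -0.83. For ATOH8 the values were -0.40 and 0.35, a difference of -0.76, and for CNR1 -0.42 and 0.33, a difference of -0.75. TOB1, which holds back cell proliferation, was at 0.35 with paclitaxel and -0.34 without, a difference of 0.69.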

How the results depend on the processing

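The count of calls, 20 higher and 41 lower, moved with the trend, the count minimum, the fold rule and the unit. Without trend removal it was 37 higher and 67 lower, of which 15 and 33 were among the calls above. With length alone removed 63 were lower. A minimum mean of 100 counts gave 184 and 185 of 10088 genes, one of 1000 gave 9 and 19 of 4716, and no minimum gave 332 and 305 of 13562. A 1.5-fold rule left 0 higher and 4 lower, and a 2-fold rule 0 and 0. The deposited FPKM values gave 58 and 71 with a pseudocount of 1, and 68 and 98 with 0.1. MYO1E was at 0.20 with FPKM values and a pseudocount of 1, against -0.38, and the cause was not tested. DESeq2 size factors and library size gave the same 20 and 41 calls by construction, since the fitted trend takes up any scaling. GC content alone, an implied effective length, and leaving out genes that share reads, the last chosen after seeing the data, kept the counts within 1.5 times. Median signs of the ERK feedback, protease, NRF2, cholesterol and tubulin lists held in the 5 alternatives run for lists, while 22 of 54 lists, all with medians between -0.03 and 0.04, changed sign in at least 1 of them. DESeq2 size factors and library size were among these 5 and could not change a list median, since the trend takes up scaling. No paired analysis was possible because the conditions are single libraries, and for the same reason no library could be left out. At the count minimum the interval reaches up to 0.19 to either side, so smaller differences of such genes were not detectable at this depth.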

Other observations

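Some genes under the count minimum are given as raw values, chosen after they were seen. CDH1, the epithelial cadherin gene, had 14 counts in enzastaurin and 1 in DMSO, a raw log2 ratio of 3.84 (1.12 to 9.24), and 14 in the combination and 1 in paclitaxel, at 4.27 (1.55 to 9.67). These counts are few, and the level was at most 0.777 CPM in any library. ID2, an inhibitor of basic helix-loop-helix factors, had 514 counts in enzastaurin and 374 in DMSO, at 0.49 (0.30 to 0.69). SPRED3, of a family that inhibits RAS signalling, had 69 counts in enzastaurin and 120 in DMSO, at -0.77 (-1.21 to -0.33), and the early-response receptor gene NR4A1 had 395 and 511, at -0.34.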
